A study of Danio rerio with 12 samples.

Results

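The genes described here encode the receptors and adhesion proteins of chemical synapses and the synaptotagmins, some of which act in transmitter release. They were every gene in the count tables whose symbol begins with *gabr*, *gria*, *grid*, *grik*, *glra*, *chrn*, *nrxn* or *nlgn*, or with *grin* or *syt* followed by a number. The rule used names and no measured value, and it took 124 of 27191 genes. They were 24 GABA-A receptor, 5 glycine receptor, 8 AMPA, 6 kainate, 13 NMDA and 3 delta receptor subunits, 6 muscle-type and 20 other nicotinic subunits, 7 neurexins, 7 neuroligins and 23 synaptotagmins. The prefix *grid* also took 2 genes that encode a delta receptor interacting protein and are counted apart. Many zebrafish genes came as a pair under one human-style symbol, 38 members in all, and these are given with their Ensembl identifier.

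The study asked which genes mark the atrioventricular canal (AVC) of the zebrafish heart. Hearts of the enhancer trap line *sqet31Et*, in which a Tol2 insertion with EGFP behind the basal *krt4* promoter labels the AVC, the bulbus arteriosus and, weakly, some other myocardium, were pooled, dissociated and sorted by flow cytometry. The 4 groups were GFP+ cells at 48 hpf, GFP− cells at 48 hpf, GFP+ cells at 72 hpf and GFP− cells at 72 hpf, with 3 libraries each, and all of them carried the same insertion. By the study's account the bulbus arteriosus is labelled at 72 hpf and not at 48 hpf, so a difference between the stages in GFP+ and the added tissue cannot be told apart. The GFP− fraction was whatever in the dissected tissue did not fluoresce.

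As background, glutamate opens AMPA, kainate and NMDA channels and excites neurons, whereas GABA and glycine open chloride channels of the GABA-A and glycine receptor families and mostly inhibit them. Nicotinic receptors are opened by acetylcholine, one set of subunits at the junction of nerve and skeletal muscle and another in neurons and autonomic ganglia. Neurexins on the presynaptic side bind neuroligins on the postsynaptic side and hold the synapse together. Some synaptotagmins, SYT1 among them, sit on vesicles and couple calcium entry to release. Heart muscle itself is driven through gap junctions and is not known for fast synaptic transmission between its cells.

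Total counts ran from 20530602 to 62359004 per library. Of the 124 members, 116 to 124 had at least 1 count in a given library, none was at or under 3 counts in all 12, and 120 passed the filter on low counts and were tested. The other 4 were CHRNA9, *chrna4a*, *chrna9b* and *chrna10b*, all nicotinic subunits outside the muscle type. A pair of libraries stood apart in GFP− at 72 hpf. Replicate 1 had 21.0% of its counts in its 10 most counted genes (5.11% to 8.47% in the other 11 libraries) and rank correlations of 0.868 and 0.910 with the rest of its group. Replicate 3 had a summed member level of 1604 CPM (counts scaled to a common effective library size by edgeR), against 507 and 589 CPM in replicates 1 and 2, and 107 of the 120 tested members had their highest value of that group in it. Counts at 72 hpf are therefore also given without either library where this moves them by more than 1.5 times, and calls of single genes where it ends them.

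Cardiomyocyte markers were higher in GFP+ than in GFP− at 48 hpf, although the study describes GFP− as the remaining heart cells. The 12 cardiomyocyte genes summed to 4105 to 7914 CPM in GFP+, against 78.0 to 469 CPM in GFP−. At 72 hpf they summed to 2172 to 3197 CPM in GFP+ and 408 to 1247 CPM in GFP−. The 15 pan-neuronal genes moved the other way, with 555 to 836 CPM in GFP+ and 4259 to 7638 CPM in GFP− at 48 hpf, and 222 to 348 CPM in GFP+ and 954 to 1912 CPM in GFP− at 72 hpf. The 21 photoreceptor genes summed to 18.4 to 33.2 CPM in GFP+, with *rho* (rhodopsin) and *opn1mw1* (a cone opsin) at 0 in all 3 libraries, against 385 to 583 CPM in GFP− at 48 hpf. At 72 hpf the photoreceptor sum was 37.1 to 56.4 CPM in GFP+ and 1469 to 3298 CPM in GFP−, with no gene of the list at 0 throughout a group. The test called 14 of the 15 pan-neuronal genes lower in GFP+ at 48 hpf, and 13 of the 15 at the later stage. For the 21 photoreceptor genes these counts were 10 at 48 hpf and 19 at 72 hpf. Over all tested genes 14.4% were lower and 14.6% higher in GFP+ at 48 hpf, and 10.8% lower and 6.22% higher at 72 hpf. These shares stand beside the fraction counts of every list in this text. The 14 neural progenitor and glia genes summed to 217 to 381 CPM in GFP+, with *slc1a2a* at 0 in all 3 libraries, and 1711 to 2555 CPM in GFP− at 48 hpf, with 9 of 14 lower and 1 higher. At 72 hpf they summed to 125 to 201 CPM in GFP+ and 413 to 2463 CPM in GFP−, with 8 lower and 1 higher. The 10 endocrine genes summed to 265 to 791 CPM in GFP+ and 569 to 793 CPM in GFP− at 48 hpf, where the fractions overlapped and 4 were lower and 2 higher, and to 65.4 to 91.7 CPM in GFP+ and 471 to 2981 CPM in GFP− at 72 hpf, with 8 lower and 0 higher. None of the 10 was at 0 in all 3 libraries of a group. At 48 hpf the 6 endocardium and endothelium genes summed to 1227 to 2247 CPM in GFP+ and 480 to 1736 CPM in GFP−, with 0 called. At 72 hpf they summed to 915 to 1311 CPM in GFP+ and 771 to 2830 CPM in GFP−, with 1 lower and 0 higher. The count of lower genes was 2 without GFP− replicate 1 and 0 without GFP− replicate 3 at 72 hpf. In replicate 2 at 48 hpf the 6 lens genes summed to 151 CPM in GFP+ and 41.2 CPM in GFP−. The other libraries of that stage had 0.526 to 1.71 CPM. At 72 hpf the lens sum was at most 2.55 CPM, with *crygm2d1* at 0 in all 3 GFP+ libraries. The pan-neuronal, photoreceptor, and neural progenitor and glia lists were lower in GFP+ at both stages, as were the members below. The endocrine list was so at 72 hpf only, and the cardiomyocyte list went the other way. Between the stages in GFP−, 14 of 21 photoreceptor genes were higher and 1 lower at 72 hpf. Of the members 14 were higher and 46 lower in that comparison, and of all tested genes 26.1% were higher and 22.3% lower. The part of all these lists in the results below was not tested.

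Synaptic genes were lower in the GFP+ fraction at both stages. At 48 hpf the members summed to 354, 285 and 337 CPM in the 3 GFP+ libraries, against 1960, 1756 and 1973 CPM in the 3 GFP− libraries. At 72 hpf they summed to 237, 261 and 282 CPM in GFP+, against 507, 589 and 1604 CPM in GFP−. The fractions did not overlap at either stage. CPM are scaled by effective library size and not by gene length, so levels are compared between libraries and not between genes. In sorted bulk libraries, fewer cells of a type and less RNA per cell cannot be told apart.

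**Figure D1:**
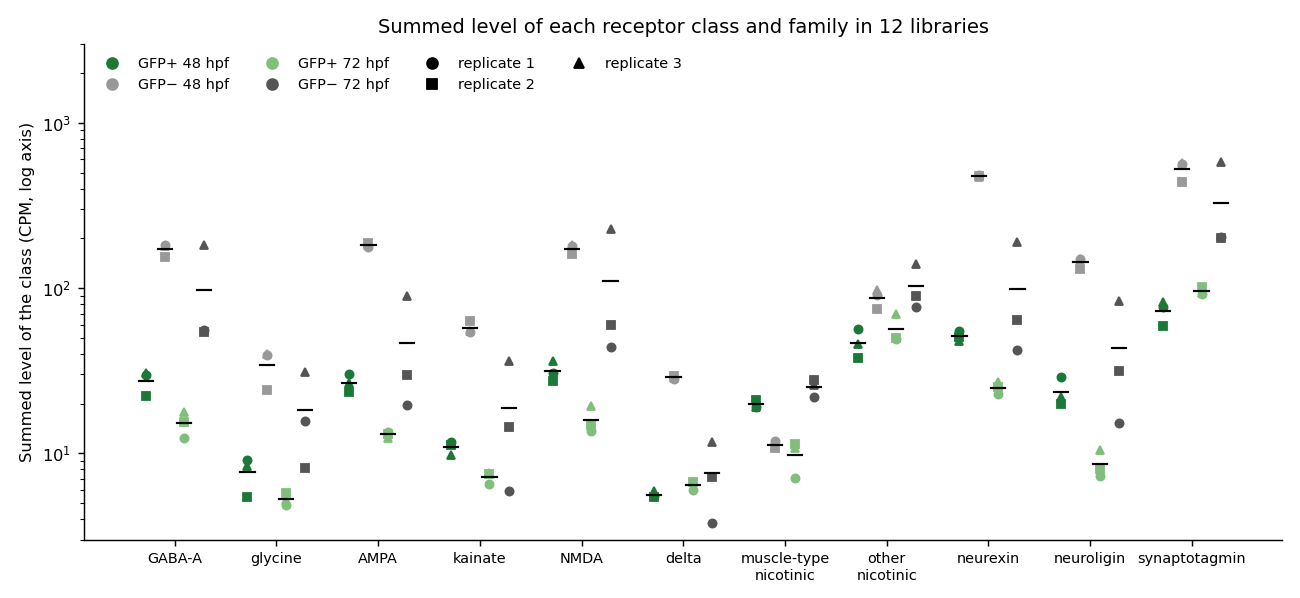
Summed CPM of each class (log axis) in the 12 libraries, with 1 point per library, shape for the replicate and a bar at the group mean, in the order GFP+ 48, GFP− 48, GFP+ 72 and GFP− 72 hpf. All 3 GFP+ libraries lie below all 3 GFP− libraries at 48 hpf in every class plotted except the muscle-type nicotinic subunits, where they lie above, and replicate 3 of GFP− at 72 hpf lies at or above the rest of its group in every class but that one. The delta receptor interacting proteins are not plotted.

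Of the 120 tested members, 81 were lower and 2 higher in GFP+ than in GFP− at 48 hpf (adjusted p below 0.05 by edgeR's quasi-likelihood test, with Benjamini-Hochberg adjustment over all 23222 tested genes). Over all tested genes 14.4% were lower and 14.6% higher. The median log2 fold change (log2FC, GFP+ over GFP−) of the tested members was -2.31, against 0.03 over all tested genes, and was -2.22 with the 4 members that had at most 3 counts in every GFP+ library set to that floor. At 72 hpf 66 members were lower and 0 higher, beside 10.8% lower and 6.22% higher over all genes. None was higher at an unadjusted p below 0.05 or by DESeq2, although 5 had a positive log2FC. The count of lower members at 72 hpf was 46 without GFP− replicate 3 and 77 without GFP− replicate 1. The median log2FC at 72 hpf was -1.90, against -0.02 over all genes, and was -1.79 with 6 members at their floor. In all, 57 members were lower in GFP+ at both stages, 24 at 48 hpf only, 9 at 72 hpf only and 28 were called at neither stage. Both members called higher at 48 hpf were muscle-type nicotinic subunits. Of these, 0 were called without GFP− replicate 2 at 48 hpf, and 1 without GFP− replicate 1, GFP− replicate 3 or GFP+ replicate 3 at 48 hpf.

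**Figure D2:**
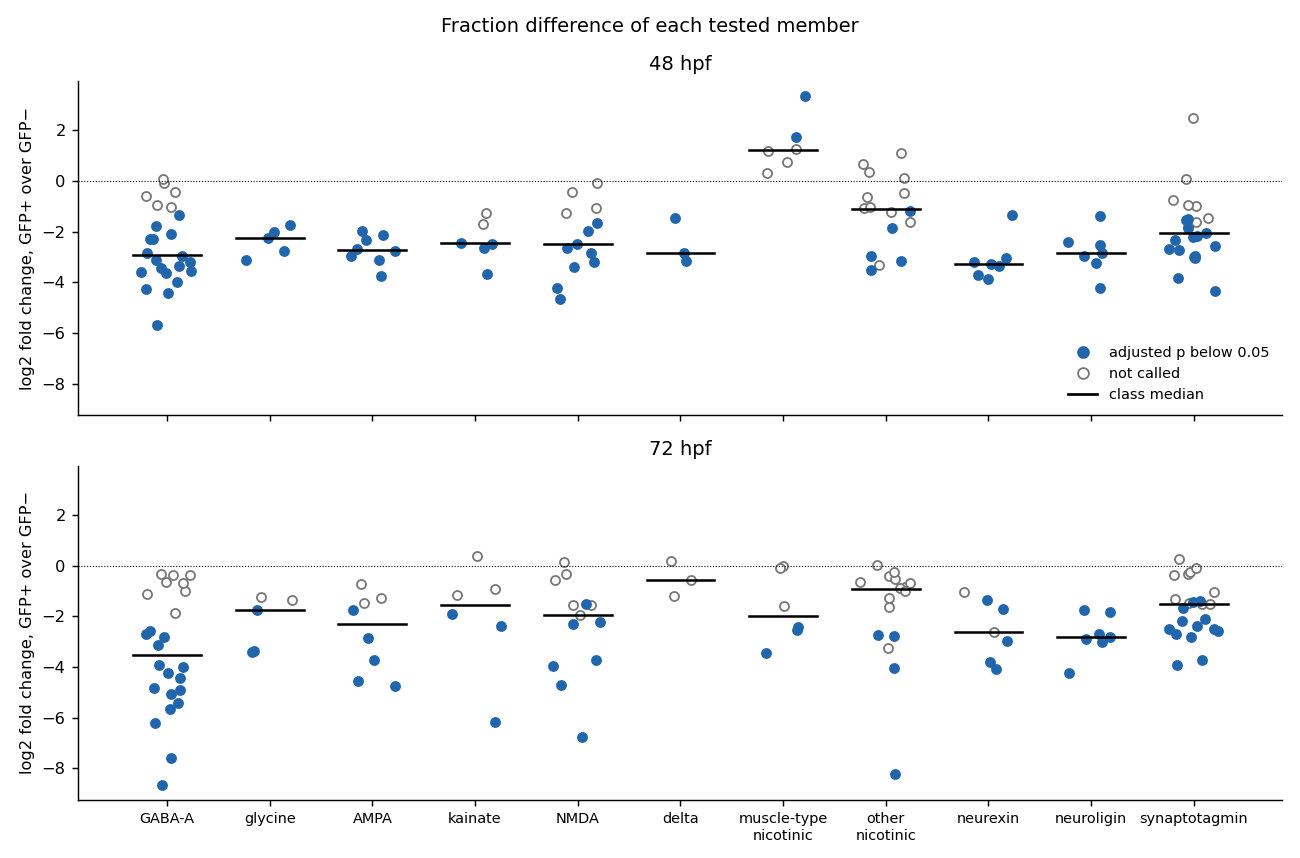
Fitted log2 fold change of GFP+ over GFP− for the 118 tested members outside the delta receptor interacting proteins, at 48 hpf (top) and 72 hpf (bottom), with 1 point per gene, filled where the adjusted p is below 0.05, and a bar at the class median. At 48 hpf the muscle-type nicotinic subunits are the only class with a median above 0, at 1.23, and at 72 hpf their median is -2.01. The fitted values of genes at or near 0 counts in GFP+ are not bounds.

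The GABA-A receptor, the main inhibitory receptor of the brain, is a ring of alpha, beta and other subunits around a chloride pore. Of its 24 genes, 18 were called lower in GFP+ at the earlier stage and 16 at the later one, with 0 higher at either stage. The beta subunit gene *gabrb4* had 2.76, 1.54 and 2.62 CPM in GFP+ at 48 hpf, against 39.5, 28.8 and 39.9 CPM in GFP−. At 72 hpf it had 0, 0.0960 and 0.0791 CPM in GFP+, against 0.678, 2.16 and 4.43 CPM in GFP−. The fractions did not overlap within either stage, and its log2FC was -3.97 ± 0.62 (SE) at 48 hpf (padj = 0.0006) and -5.44 ± 0.79 at 72 hpf (padj = 0.0006). In contrast, *gabrb1*, another beta subunit, had 6.15, 6.44 and 7.89 CPM in GFP+ at 48 hpf, against 7.14, 10.1 and 10.0 CPM in GFP−, and 3.89, 6.49 and 5.85 CPM in GFP+ at 72 hpf, against 7.20, 4.84 and 8.21 CPM in GFP−. It was called in no comparison. GABRB2 came as a pair of which 1 gene (ENSDARG00000100032) was lower in GFP+ at both stages (log2FC -3.63 and -4.01), while for the other (ENSDARG00000079586) the log2FC was -0.06 ± 0.46 and -0.68 ± 0.46 and neither passed the test.

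The rho subunits form GABA-gated channels known chiefly from the retina. In GFP− cells 4 of the 6 rho genes were higher at 72 than at 48 hpf, where 26.1% of all genes were, and so was GABRA6 (ENSDARG00000075058). The calls of 2 rho genes were lost without GFP− replicate 3 at 72 hpf, GABRR1 (ENSDARG00000098081, padj = 0.055) and GABRR2 (ENSDARG00000052982, padj = 0.19). The smallest adjusted p between the fractions at 72 hpf was that of *gabrr3b*, with 0.0362, 0 and 0 CPM in GFP+ at 72 hpf, against 4.24, 4.32 and 13.3 CPM in GFP− (padj = 9.7e-05). That is 2, 0 and 0 counts in GFP+, against 50, 198 and 391 counts in GFP−. At 48 hpf it had 0, 2 and 0 counts in GFP+ and 41, 51 and 30 counts in GFP−. GABRR1 (ENSDARG00000043902) had at most 0.0960 CPM in the 6 GFP+ libraries and 2.12, 1.79 and 4.09 CPM in GFP− at 72 hpf, against 0.283, 0.384 and 0.165 CPM in GFP− at 48 hpf (log2FC 3.24 ± 0.59 between the stages in GFP−, padj = 0.0011). The other GABRR1 gene (ENSDARG00000098081) overlapped between the fractions at 48 hpf, with 1.13, 0.718 and 0.460 CPM in GFP+ and 1.11, 0.713 and 0.329 CPM in GFP−. At 72 hpf it had 0.380, 0.211 and 0.475 CPM in GFP+, against 3.30, 1.2 and 4.77 CPM in GFP− (log2FC -3.13 ± 0.64, padj = 0.0047). The 14 retinal interneuron and ganglion cell genes summed to 144 to 192 CPM in GFP+ and 810 to 1026 CPM in GFP− at 48 hpf, with 7 lower and 1 higher. At 72 hpf they summed to 41.5 to 68.5 CPM in GFP+ and 249 to 840 CPM in GFP−, with 12 lower and 0 higher. None was at 0 in all 3 libraries of a group. In GFP− 2 of the 14 rose and 6 fell between the stages, where 26.1% of all genes rose and 22.3% fell. Without GFP− replicate 3 at 72 hpf 1 rose and 5 fell. The photoreceptor sum in GFP− was higher at 72 hpf, as given above, and the part of these cells in the rho values was not tested.

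Glycine receptors, the inhibitory channels of spinal cord and brainstem, had 5 alpha subunit genes. The test called all 5 lower in GFP+ at 48 hpf, and 3 of them again at 72 hpf, or 2 without GFP− replicate 3. GLRA1 had 3.73, 2.31 and 3.82 CPM in GFP+ at 48 hpf, against 11.9, 7.57 and 13.3 CPM in GFP− (log2FC -1.73 ± 0.40, padj = 0.0057). GLRA3 and *glra4a* had log2FC of -2.23 ± 0.64 and -2.74 ± 0.46 at that stage. GLRA2 fell between the stages in both fractions, to 0.127, 0.0768 and 0.0396 CPM in GFP+ at 72 hpf, against 1.89, 0.957 and 1.56 CPM at 48 hpf (log2FC -4.02 ± 0.56, padj = 0.00059).

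Among the receptors for glutamate, all 8 AMPA genes were lower in GFP+ at 48 hpf. The same test called 5 of them lower at 72 hpf, and 0 were higher at either stage. The median log2FC of the class was -2.72 at 48 hpf. GRIA2, whose edited form makes AMPA channels impermeable to calcium in mammals, was a pair. The copy ENSDARG00000052765 had 3.45, 3.11 and 4.49 CPM in GFP+ at 48 hpf, against 30.0, 30.4 and 25.2 CPM in GFP−. At 72 hpf it had 0.145, 0.422 and 0.316 CPM in GFP+, against 2.12, 6.08 and 12.5 CPM in GFP− (log2FC -4.57 ± 0.60, padj = 0.00032). The other copy, ENSDARG00000070173, had log2FC of -3.76 ± 0.82 at 48 hpf and -3.74 ± 0.85 at 72 hpf. GRIA1 (ENSDARG00000021352) had 10.3, 9.44 and 12.4 CPM in GFP+ at 48 hpf, against 40.1, 53.3 and 46.2 CPM in GFP− (log2FC -2.12 ± 0.34, padj = 0.00072). At 72 hpf it had 8.02, 8.93 and 8.62 CPM in GFP+ and 8.56, 10.7 and 22.4 CPM in GFP−, a difference that did not pass the test (log2FC -0.71 ± 0.33, padj = 0.17).

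Kainate receptors had 6 genes, of which the test called 4 lower in GFP+ at 48 hpf and 3 lower at 72 hpf, or 2 without GFP− replicate 3. GRIK3 was called between the fractions at 48 hpf and not at 72 hpf. It had 3.26, 4.02 and 3.19 CPM in GFP+ at 48 hpf, against 18.2, 22.4 and 17.7 CPM in GFP− (log2FC -2.48 ± 0.54, padj = 0.0044). By 72 hpf it had 3.31, 2.65 and 2.49 CPM in GFP+, inside the range of 0.339, 1.74 and 4.15 CPM in GFP−. Between the stages its log2FC was -0.30 ± 0.52 in GFP+ (padj = 0.71), while in GFP− it fell (log2FC -3.18 ± 0.56, padj = 0.00097). GRIK2 and GRIK5 were lower in GFP+ at 48 hpf (log2FC -2.44 ± 0.45 and -2.65 ± 0.45), and of the 2 only GRIK5 was called at 72 hpf (-1.92 ± 0.47, padj = 0.013).

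NMDA receptors need a GRIN1 subunit in every channel, joined by GRIN2 or GRIN3 subunits. Of 13 NMDA genes, the test called 9 lower in GFP+ at 48 hpf and 7 lower at 72 hpf, with 0 higher. Without GFP− replicate 3 the count at 72 hpf was 3. GRIN1 (ENSDARG00000025728) had 4.13, 3.91 and 9.66 CPM in GFP+ at 48 hpf, against 60.3, 47.5 and 54.7 CPM in GFP− (log2FC -3.20 ± 0.75, padj = 0.0063). Its 72 hpf libraries had 0.362, 0.653 and 0.831 CPM in GFP+, against 13.9, 27.4 and 155 CPM in GFP− (log2FC -6.76 ± 0.90, padj = 0.00034). The 155 CPM is GFP− replicate 3, and the log2FC without it was -5.10 (padj = 8.7e-05). The other GRIN1 gene (ENSDARG00000027828) gave -3.41 ± 0.53 at 48 hpf and -4.70 ± 0.59 at 72 hpf. GRIN3B, a subunit that lowers calcium flow in mammals, had 4.95 to 6.63 CPM in GFP+ and 6.6 to 9.35 CPM in GFP− at 48 hpf, and 6.59 to 7.32 CPM in GFP+ and 8.09 to 12.9 CPM in GFP− at 72 hpf. It was called in no comparison.

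GRIN2D, another NMDA subunit, was a pair. At 48 hpf both copies were lower in GFP+ (log2FC -1.96 ± 0.34 for *grin2da* and -2.65 ± 0.40 for *grin2db*). At 72 hpf *grin2da* had 1.97, 3.13 and 2.18 CPM in GFP+ and 2.20, 1.4 and 3.06 CPM in GFP−, so the fractions overlapped. Delta receptors are known from cerebellar synapses, and both GRID1 genes were lower in GFP+ at 48 hpf and not called at 72 hpf. GRID1 (ENSDARG00000074583) had 3.45, 2.71 and 3.33 CPM in GFP+ at 48 hpf, against 7.81, 8.88 and 9.15 CPM in GFP− (log2FC -1.45 ± 0.33, padj = 0.0054). In the 72 hpf libraries it had 3.6, 5.09 and 5.02 CPM in GFP+ and 2.29, 4.38 and 5.28 CPM in GFP−. For the other GRID1 gene (ENSDARG00000044161) the log2FC at 48 hpf was -2.84 ± 0.50. Neither delta receptor interacting protein gene was called between the fractions at either stage, but 1 of the 2 (ENSDARG00000095603, log2FC -2.77 at 48 hpf, padj = 0.090) was called lower at 48 hpf with same-numbered libraries paired (padj = 0.033) and without GFP− replicate 1 at 72 hpf (padj = 0.042).

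The muscle-type nicotinic subunits went against every other class at 48 hpf. Their 6 genes summed to 19.1 to 21.0 CPM in GFP+, against 10.8 to 11.9 CPM in GFP−. At 72 hpf they summed to 7.13 to 11.4 CPM in GFP+, against 22.0 to 27.6 CPM in GFP−. Thus the fractions did not overlap at either stage and changed places between them. CHRNE, the adult epsilon subunit of the mammalian neuromuscular junction, had 1.92, 1.91 and 2.69 CPM in GFP+ at 48 hpf, against 0.797, 0.466 and 0.659 CPM in GFP− (log2FC 1.76 ± 0.53, padj = 0.024). Later, at 72 hpf, it had 0.217, 0.422 and 1.07 CPM in GFP+, against 1.52, 1.24 and 2.18 CPM in GFP− (log2FC -1.59 ± 0.54, padj = 0.062, or 0.034 with same-numbered libraries paired). The other member called higher in GFP+ was *chrnb1l*, with 0.921, 0.425 and 1.06 CPM in GFP+ and 0.103, 0.0548 and 0.0659 CPM in GFP− at 48 hpf (log2FC 3.35 ± 0.91, padj = 0.015).

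CHRNG, the fetal gamma subunit in mammals, had 3.84, 3.70 and 5.42 CPM in GFP+ at 48 hpf, all above the 3.52, 2.82 and 1.35 CPM in GFP−, without passing the test (log2FC 0.75 ± 0.44, padj = 0.23). The values at 72 hpf were 1.25, 0.538 and 1.11 CPM in GFP+, against 10.0, 15.2 and 6.67 CPM in GFP− (log2FC -3.46 ± 0.48, padj = 0.00045). Its stage change ran in opposite directions, with a log2FC of -2.16 ± 0.46 in GFP+ (padj = 0.0058) and 2.05 ± 0.45 in GFP− (padj = 0.0032). CHRNA1, which carries the acetylcholine binding site, had 0.326, 0.173 and 0.712 CPM in GFP+ at 72 hpf, against 1.86, 2.27 and 2.62 CPM in GFP− (log2FC -2.54 ± 0.55, padj = 0.0064). CHRND gave -2.42 ± 0.78 at 72 hpf (padj = 0.049), which was no longer called without GFP− replicate 3 (padj = 0.098) and was called in 3 of the 12 fits that left out 1 library. CHRNB1, the beta subunit, was called in no comparison, with 5.52 to 8.13 CPM in GFP+ and 5.10 to 6.59 CPM in GFP− at 48 hpf, and 4.89 to 9.83 CPM in GFP+ and 5.49 to 9.64 CPM in GFP− at 72 hpf.

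Skeletal muscle marker genes moved with these subunits in part, and so did cardiomyocyte genes. The 12 genes of the list summed to 584, 790 and 1009 CPM in GFP+ and 86.1, 142 and 83.0 CPM in GFP− at 48 hpf, and to 542, 399 and 397 CPM in GFP+ and 595, 435 and 506 CPM in GFP− at 72 hpf. The sums did not overlap at 48 hpf and overlapped at 72 hpf. Most of the GFP+ sum at 48 hpf was *ckma*, *acta1b* and *acta1a*. In that order they had 203, 282 and 406 CPM, 186, 312 and 427 CPM, and 103, 85.9 and 127 CPM. None of the 12 was at 0 in all 3 libraries of a group. Of the 11 tested, 5 were higher in GFP+ at 48 hpf, and 6 were lower and 1 higher at 72 hpf. Without GFP− replicate 1 at 72 hpf 3 were lower and 1 higher. *myod1*, a regulator that defines the skeletal muscle lineage and was picked out after its values were seen, had 8.07, 8.70 and 8.07 CPM in GFP+ at 48 hpf, against 2.34, 2.77 and 2.27 CPM in GFP−. By 72 hpf it had 1.12, 0.653 and 3.20 CPM in GFP+, against 15.0, 7.0 and 12.1 CPM in GFP−. Others of the list did not follow it: *ckma*, a muscle creatine kinase, was higher in GFP+ at both stages (log2FC 4.39 at 48 hpf, padj = 0.00011, and 1.65 at 72 hpf, padj = 0.016). *acta1b*, a skeletal actin, was higher in GFP+ at 48 hpf (log2FC 5.04, padj = 0.00038) and not called at 72 hpf (0.66, padj = 0.48), and for MYOG, another regulator of the lineage, the log2FC was -0.15 at 48 hpf (padj = 0.85) and -1.49 at 72 hpf (padj = 0.049). RAPSN, which clusters the receptor under the nerve ending, had a log2FC of 1.43 at 48 hpf (padj = 0.047), a call lost with same-numbered libraries paired and without GFP− replicate 3 at 72 hpf, and of -0.64 at 72 hpf (padj = 0.40). The cardiomyocyte list shared a part of this pattern. All 11 of its tested genes were higher in GFP+ at 48 hpf. At 72 hpf 6 were higher and 0 lower, or 3 higher without GFP− replicate 3. In GFP− 8 of the 11 rose between the stages and 0 fell, where 26.1% and 22.3% of all genes did. The median change of the log2FC from 48 to 72 hpf was -3.12 for this list, -2.95 for the skeletal list and -3.58 for the muscle-type subunits. The part of skeletal muscle cells and of cardiomyocytes in these values was not tested.

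**Figure D3:**
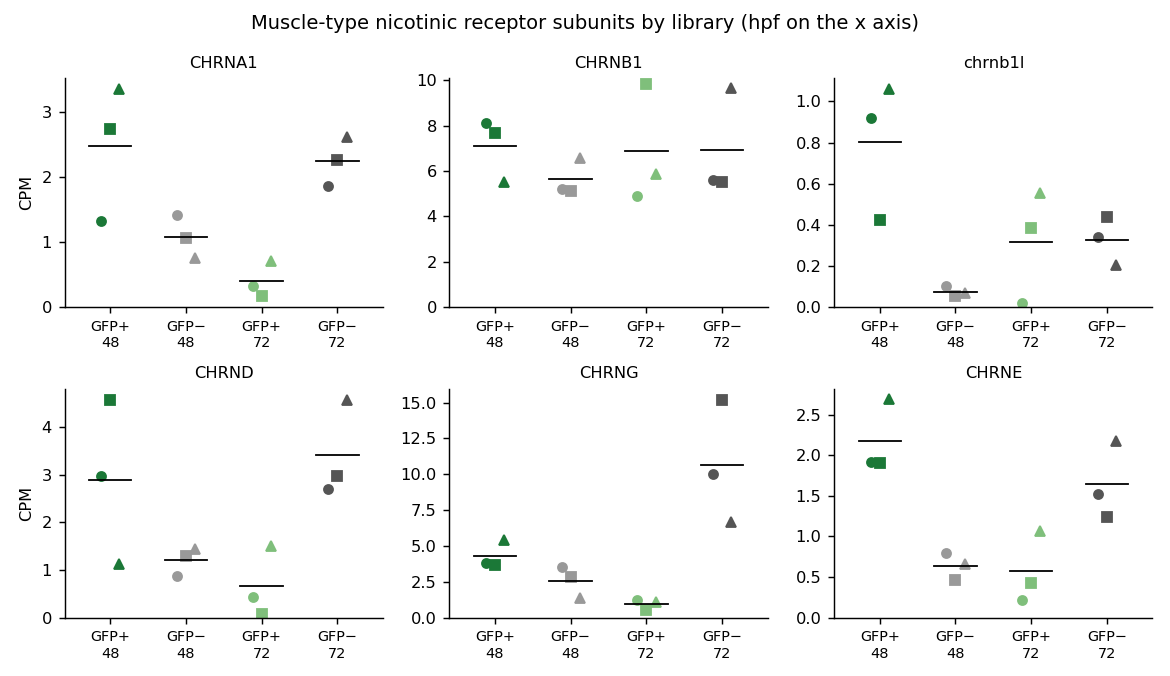
CPM of the 6 muscle-type nicotinic subunits in the 12 libraries, GFP+ beside GFP− at 48 and then at 72 hpf, with 1 point per library, shape for the replicate (circle 1, square 2, triangle 3) and a bar at the group mean. In CHRNA1, CHRND, CHRNG and CHRNE all 3 GFP+ libraries lie below all 3 GFP− libraries at 72 hpf, while at 48 hpf the mean is higher in GFP+ in all 6 panels.

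Of the 20 other nicotinic genes, of neurons, ganglia and sensory cells, 16 were tested. The test called 5 lower in GFP+ at 48 hpf and 4 lower at 72 hpf, and the median log2FC was -1.12 at 48 hpf and -0.94 at 72 hpf. The count at 48 hpf was 8 without GFP− replicate 1 at 72 hpf. All groups share 1 fit, and the cause of this change was not tested. CHRNB2, the beta subunit of the most common receptor of the mammalian brain, had 8.57, 6.86 and 6.44 CPM in GFP+ at 48 hpf, against 16.6, 16.1 and 16.3 CPM in GFP− (log2FC -1.16 ± 0.28, padj = 0.0078). Its 72 hpf libraries had 6.65, 5.38 and 7.08 CPM in GFP+ and 6.86, 8.07 and 12.6 CPM in GFP−, and the test was not passed (log2FC -0.53 ± 0.28, padj = 0.22). *chrnb5b* had 9.10 to 11.1 CPM in GFP+ and 15.4 to 16.0 CPM in GFP− at 48 hpf, and 12.1 to 16.3 CPM in GFP+ and 14.5 to 22.0 CPM in GFP− at 72 hpf, and was called in no comparison.

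CHRNB4 and CHRNA3 are known as the subunits of the receptor in autonomic ganglia. CHRNB4 had 15.3, 6.22 and 6.26 CPM in GFP+ and 5.78, 3.78 and 8.07 CPM in GFP− at 48 hpf, so the fractions overlapped. In the 72 hpf libraries it had 9.58, 3.53 and 16.8 CPM in GFP+ and 13.0, 22.6 and 24.8 CPM in GFP−. CHRNB4 rose between the stages in GFP− (log2FC 1.78 ± 0.55, padj = 0.018), and so did CHRNA3 (log2FC 2.22 ± 0.51, padj = 0.0041). In GFP+ the stage log2FC was 0.10 ± 0.53 for CHRNB4 and 1.19 ± 0.50 for CHRNA3, neither of which passed the test. The 12 genes of the autonomic and cardiac neuron list summed to 551 to 749 CPM in GFP+ and 379 to 439 CPM in GFP− at 48 hpf. At 72 hpf they summed to 1384 to 2164 CPM in GFP+ and 706 to 1275 CPM in GFP−. None was at 0 in all 3 libraries of a group. Of these sums *hand2* alone held 488, 648 and 436 CPM in GFP+ and 191, 249 and 136 CPM in GFP− at 48 hpf. At 72 hpf it held 1786, 2061 and 1283.5 CPM in GFP+ and 1125, 956 and 487 CPM in GFP−. Of the 12 genes, 4 were lower and 1 (*hand2*) higher in GFP+ at 48 hpf, with a median log2FC of -0.99. At 72 hpf 6 were lower and 3 (*tlx2*, *th* and *dbh*) higher, with a median of -1.34, and *hand2* was not called (log2FC 1.00, padj = 0.078). In GFP− 1 of the 12 rose and 2 fell between the stages, where 26.1% of all genes rose and 22.3% fell. *chrna10a*, whose relatives in mammals act in hair cells, showed the largest fitted stage change of the tested members in GFP− (log2FC 4.73), with 1.52, 2.01 and 6.71 CPM at 72 hpf, against 0.103, 0.0548 and 0.231 CPM at 48 hpf (padj = 0.00093). In GFP+ at 72 hpf it had 0, 0 and 1 counts.

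Neurexins were the class with the lowest median log2FC at 48 hpf, at -3.26. All 7 neurexin genes were called lower in GFP+ at 48 hpf, and 5 of them again at 72 hpf, or 3 without GFP− replicate 3. NRXN3 had 11, 10.2 and 7.54 CPM in GFP+ at 48 hpf, against 134, 170 and 117 CPM in GFP− (log2FC -3.87 ± 0.48, padj = 0.00018). Later, at 72 hpf, it had 4.09, 2.88 and 5.26 CPM in GFP+, against 5.76, 10.1 and 23.9 CPM in GFP− (log2FC -1.71 ± 0.44, padj = 0.018), and without GFP− replicate 3 the call was lost (log2FC -0.97, padj = 0.073). *nrxn1a* had 19.8, 19.9 and 22.9 CPM in GFP+ at 48 hpf, against 174, 154 and 182 CPM in GFP−. The values at 72 hpf were 10.6, 12.8 and 12.8 CPM in GFP+, against 14.1, 20.0 and 59.0 CPM in GFP− (log2FC -1.37 ± 0.42, padj = 0.042), and this call too was lost without GFP− replicate 3 (log2FC -0.50, padj = 0.19) and with the libraries paired (padj = 0.059). *nrxn2a* kept its distance, with log2FC of -3.37 ± 0.52 and -3.82 ± 0.55 at the 2 stages.

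The neuroligins, their partners across the cleft, were the only class in which every gene was lower in GFP+ at both stages, 7 of 7 each time. The count at 72 hpf was 5 without GFP− replicate 3. *nlgn3b* had 5.05, 4.20 and 6.23 CPM in GFP+ at 48 hpf, against 51.7, 38.2 and 55.0 CPM in GFP−. By 72 hpf it had 0.308, 0.384 and 0.396 CPM in GFP+, against 1.1, 5.25 and 14.2 CPM in GFP− (log2FC -4.26 ± 0.68, padj = 0.0011). NLGN3 gave -2.41 ± 0.52 and -2.91 ± 0.54, and *nlgn4xa* gave -1.39 ± 0.48 and -1.81 ± 0.49, at 48 and 72 hpf. The *nlgn4xa* call at 48 hpf held in 3 of the 12 fits that left out 1 library. Its call at 72 hpf was lost without GFP− replicate 3 (log2FC -0.87, padj = 0.092).

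Synaptotagmins were lower in GFP+ at about the shares of all members, 65.2% against 67.5% at 48 hpf and 56.5% against 55% at 72 hpf. Of 23 genes, the test called 15 lower in GFP+ at 48 hpf and 13 lower at 72 hpf, with 0 higher at either stage. The count at 72 hpf was 8 without GFP− replicate 3. SYT1, the main calcium sensor of fast release in the forebrain, had 23.3, 17.2 and 28 CPM in GFP+ at 48 hpf, against 199, 177 and 185 CPM in GFP− (log2FC -3.03 ± 0.59, padj = 0.0023). Its 72 hpf libraries had 8.46, 8.16 and 14.2 CPM in GFP+, against 18.7, 33.3 and 134 CPM in GFP− (log2FC -2.60 ± 0.59, padj = 0.0084). Its log2FC at 72 hpf was -1.34 without GFP− replicate 3 (padj = 0.022). SYT4 of dense-core vesicles gave -2.95 ± 0.42 at 48 hpf and -3.73 ± 0.45 at 72 hpf, and SYT9 (ENSDARG00000003994) gave -2.56 ± 0.33 and -2.82 ± 0.35. SYT11 (ENSDARG00000057913) gave -2.98 ± 0.51 and -2.50 ± 0.50.

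*syt5b* was the member that rose in the GFP+ fraction. It had 3.42, 3.24 and 2.19 CPM in GFP+ at 48 hpf, and 62.7, 71.3 and 50.4 CPM in GFP+ at 72 hpf. The log2FC of 4.38 ± 0.47 (padj = 0.00012) made it the only member of 120 called higher at 72 than at 48 hpf in GFP+, where 11.4% of all genes were higher, and it was called in each of the 12 fits that left out 1 library. In GFP− it had 81.1, 42.6 and 58.0 CPM at 48 hpf and 115, 88.3 and 277 CPM at 72 hpf. It was lower in GFP+ at both stages, with a log2FC of -4.35 ± 0.47 at 48 hpf (padj = 0.00011) and -1.38 ± 0.41 at 72 hpf (padj = 0.036). Without GFP− replicate 3 the difference at 72 hpf was -0.72 and did not pass the test (padj = 0.14), nor did it with same-numbered libraries paired (padj = 0.073). The stage change of *syt5b* in GFP− was 1.4 ± 0.41 (padj = 0.014), and 0.74 without that library (padj = 0.073). Its namesake *syt5a* stayed low in GFP+, with 0.106 to 0.849 CPM at 48 hpf and 0.598 to 1.02 CPM at 72 hpf, while in GFP− it had 10.7, 6.78 and 19.4 CPM at 72 hpf, against 0.385, 0.192 and 3.36 CPM at 48 hpf.

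Between the stages, members fell more often than they rose in both fractions. In GFP+ 33 of 120 were lower and 1 higher at 72 hpf, beside 11.5% lower and 11.4% higher over all genes, with a median log2FC of -0.85 against -0.02. Without GFP+ replicate 1 at 72 hpf 21 fell in GFP+, and without GFP+ replicate 2 at 72 hpf 16 did. In GFP− 46 were lower and 14 higher, beside 22.3% lower and 26.1% higher over all genes, with a median of -0.98 against 0.14. The fall in both fractions was shared by 21 members, 25 fell in GFP− only by these calls, and 10 in GFP+ only. The AMPA subunits, neurexins and neuroligins held 6, 5 and 6 of the members that fell in GFP−, and 0 that rose. The 14 that rose in GFP− were the 4 rho genes and GABRA6 (ENSDARG00000075058), CHRNG and CHRNE, CHRNA3, CHRNB4, *chrna8* and *chrna10a*, *syt5a*, *syt5b* and *syt15*. Without GFP− replicate 3 they were 9, and 61 members fell. CHRNE was called in 2 of the 12 fits that left out 1 library, and *syt15* was not called with same-numbered libraries paired (padj = 0.063). SYT9 (ENSDARG00000003994) fell in both fractions with the smallest adjusted p of any member in GFP−, to 2.80, 2.38 and 5.35 CPM at 72 hpf, against 32.8, 22.2 and 32.4 CPM at 48 hpf (log2FC -3.05 ± 0.34, padj = 8e-05). In GFP+ it had 0.507, 0.499 and 0.475 CPM at 72 hpf, against 5.18, 4.79 and 4.81 CPM at 48 hpf (log2FC -3.31 ± 0.36, padj = 0.00013). *nrxn2a* fell likewise in GFP+ (log2FC -3.87 ± 0.55, padj = 0.00065).

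**Figure D4:**
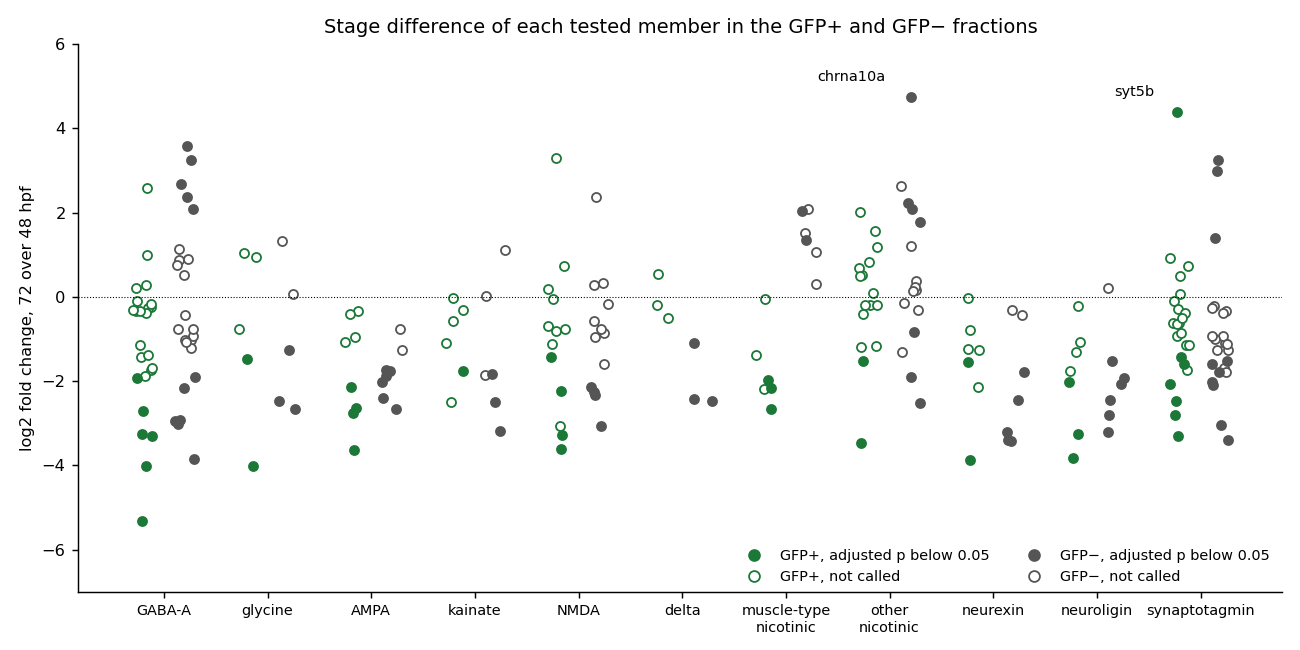
Fitted log2 fold change of 72 over 48 hpf for the 118 tested members outside the delta receptor interacting proteins, in GFP+ (green, left of each class) and GFP− (grey, right), with 1 point per gene, filled where the adjusted p is below 0.05. In GFP+ the only filled point above 0 is *syt5b*, at 4.38, and in GFP− 14 filled points lie above 0, with *chrna10a* the highest.

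The change of the fraction difference between the stages was tested as an interaction, the log2FC at 72 hpf minus that at 48 hpf. It was called for 11 of 120 members, 6 positive and 5 negative, where 2.47% of all genes were positive and 5.7% negative. The positive ones were members whose deficit in GFP+ had become smaller: SYT11 (ENSDARG00000056105), *syt5b*, GRIK3, NRXN3, *grin2da* and GRID1 (ENSDARG00000074583). SYT11 (ENSDARG00000056105) had 2.63, 2.42 and 3.68 CPM in GFP+ at 48 hpf, against 40.4, 38.6 and 46.1 CPM in GFP− (log2FC -3.84 ± 0.43, padj = 0.00011). In the 72 hpf libraries it had 2.48, 3.15 and 3.44 CPM in GFP+ and 1.69, 3.47 and 6.50 CPM in GFP−, so the fractions overlapped. Its level in GFP− had fallen (log2FC -3.40 ± 0.42, padj = 0.00013) and the interaction was 3.45 ± 0.56 (padj = 0.0046).

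The negative ones were CHRNG, CHRNA1 and CHRNE of muscle-type receptors, with interactions of -4.21 ± 0.65, -3.73 ± 0.74 and -3.34 ± 0.75, and GABRA6 (ENSDARG00000075058) and GABRR1 (ENSDARG00000098081). GABRA6 (ENSDARG00000075058), an alpha subunit, overlapped between the fractions at 48 hpf, with 0.316, 0.319 and 0.0708 CPM in GFP+ and 0.565, 0.137 and 0.395 CPM in GFP−. Later, at 72 hpf, it had 0.290, 0.115 and 0.198 CPM in GFP+, against 1.95, 2.59 and 8.55 CPM in GFP− (log2FC -4.42 ± 0.76, padj = 0.0018). Of the 11 interactions, 4 were called in every fit that left out 1 library, those of *syt5b*, SYT11 (ENSDARG00000056105), CHRNG and CHRNA1. Without GFP− replicate 3 at 72 hpf 20 were positive and 3 negative, and without GFP− replicate 1 at 72 hpf 6 were positive and 12 negative. On total counts without TMM 2 were positive and 3 negative.

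Genes with a shared base name gave 34 pairs with both copies tested. The sign of the log2FC of GFP+ over GFP− was the same in both copies of 29 pairs at 48 hpf and of 31 at 72 hpf. Only 5 of the 120 tested members had a positive log2FC at 72 hpf, so most pairs of any members would share a sign. At 48 hpf both copies were called lower in 19 pairs, 1 copy was called in 11 and neither in 4. Of all tested members 67.5% were called lower at that stage. In 0 pairs were the copies called in opposite directions, as neither member called higher at 48 hpf was in a pair. These fraction counts therefore do not show that copies were more alike than other members. For the stage change in GFP− the sign was shared in 24 pairs, both copies were called alike in 8 and 1 copy in 16, and the median gap between copies was 1.67 on the log2 scale, against 1.01 for the fractions at 48 hpf. Of the SYT11 copies, ENSDARG00000056105 fell in GFP− (log2FC -3.40) and ENSDARG00000057913 gave a log2FC of -1.1 ± 0.48 (padj = 0.073, or 0.017 with same-numbered libraries paired). Reads of similar copies are divided by the quantifier, so values of single copies are less certain than those of unpaired genes.

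**Figure D5:**
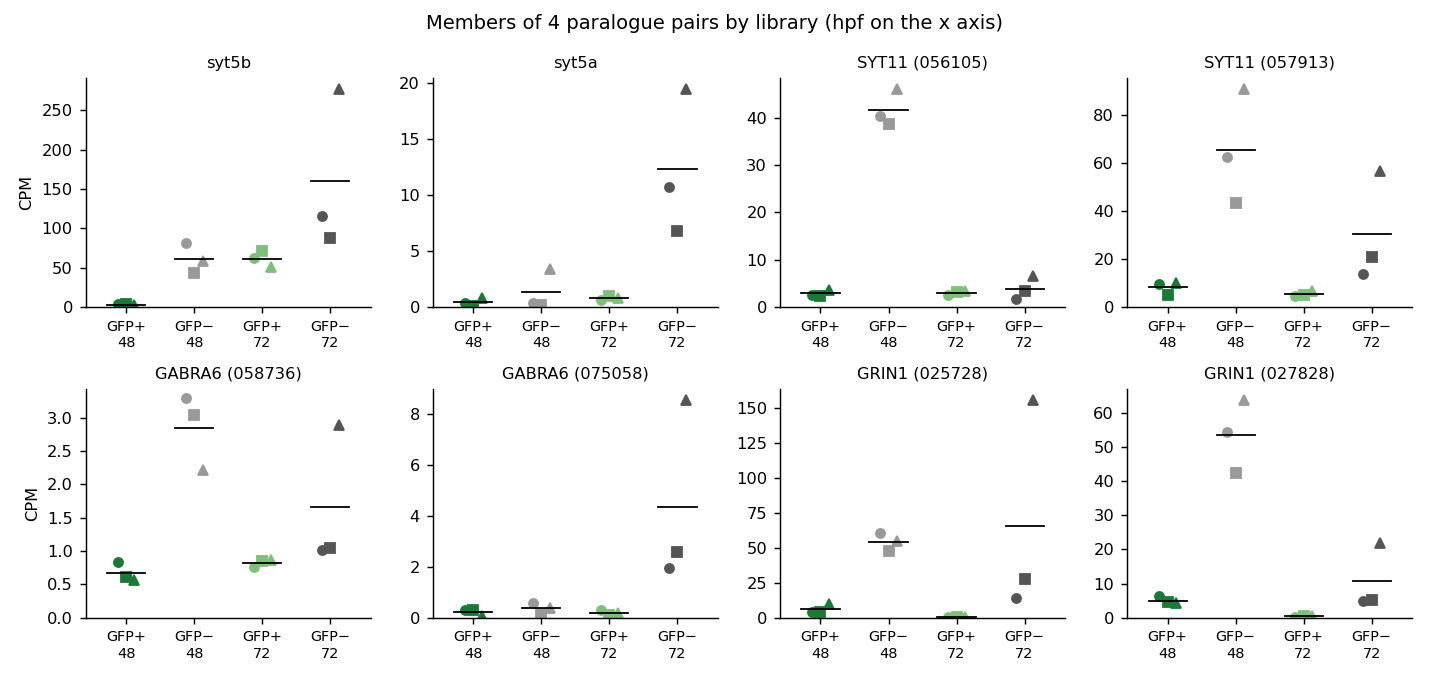
CPM of both copies of 4 pairs (*syt5*, SYT11, GABRA6 and GRIN1) in the 12 libraries, GFP+ beside GFP− at 48 and then at 72 hpf, with shape for the replicate (circle 1, square 2, triangle 3), a bar at the group mean and the last digits of the Ensembl identifier in brackets. *syt5b* is the panel in which GFP+ cells stand high at 72 hpf, at 50.4 to 71.3 CPM.

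Lists of other synaptic genes gave the surroundings of these members. Of 44 tested genes of the presynaptic release machinery, 33 were lower and 1 higher in GFP+ at 48 hpf and 30 were lower and 0 higher at 72 hpf, and the list summed to 227 to 320 CPM in GFP+ and 1480 to 2345 CPM in GFP− at 48 hpf. The 1 higher was *stx1a*, with 1.58, 0.771 and 0.531 CPM in GFP+ and 0, 0.137 and 0 CPM in GFP−. Without GFP− replicate 3 at 72 hpf, 20 were lower and 1 higher at that stage. Of 21 tested genes of transmitter synthesis and transport, 14 were lower and 0 higher at 48 hpf and 12 were lower and 1 higher at 72 hpf. The 1 higher was *th*, which makes the precursor of catecholamines, with 4.76, 2.17 and 1.31 CPM in GFP+ at 72 hpf, against 0.762, 0.480 and 1.16 CPM in GFP−. Of 43 tested scaffolds and auxiliary subunits, 25 were lower and 1 higher (RAPSN) at 48 hpf, and 20 were lower and 2 higher (*homer3b* and DLG3) at 72 hpf. With same-numbered libraries paired, the counts of higher genes were 0 in place of *th* at 72 hpf and 0 in place of RAPSN at 48 hpf. The call of *th* at 72 hpf was also lost without GFP− replicate 1 at 72 hpf. These 5 genes were named after their values were seen.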

How the data were processed

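Sorted GFP+ and GFP− heart cells of 4 groups were sequenced as 12 libraries of unstranded full-length poly-A cDNA, so overlapping antisense genes cannot be told apart. Per the submitters' processing notes, Cutadapt 1.17 trimmed the reads, which Salmon 0.9.1 quantified on build GRCz11, and the authors then ran DESeq2 1.29.13. The deposited counts are 1 whole number per Ensembl gene, not normalized. How transcripts were summed to genes is not given in the sources used here. Of 27191 genes, 4173 were named from the study's supplementary tables, 21434 from a gene name table and 1584 had no symbol.

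Counts were filtered with filterByExpr by group (23222 genes kept), scaled by TMM and tested in 1 fit of 4 groups with edgeR 4.0.16 (quasi-likelihood, Benjamini-Hochberg over all tested genes, padj below 0.05, no fold limit) in R 4.3.3 with limma 3.58.1 and DESeq2 1.42.0. SE is the log2FC divided by the root of its F. Tables and plots used Python 3.11.15, pandas 2.3.3, numpy 2.4.6 and matplotlib 3.10.9. Total counts of 20530602 to 62359004 set the precision, and a group at or under 3 counts in each library gave no fold change in the text. The fit was tested on simulated data of 23023 genes, with changes of 2 and 1 on the log2 scale. Between the fractions at 48 hpf, 39.8% of genes changed by 2 and 0% of those changed by 1 were called. In the run for 72 hpf, of 22996 genes, the shares were 25.3% and 0%. Each run held only 98 or 99 changed genes of each size, whereas in the data 14.4% of genes were lower and 14.6% higher at 48 hpf. With so few changed genes the adjustment over all genes is stricter, so these shares are not those of the data. In the data ISL2 (ENSDARG00000003971) was called at 48 hpf with a log2FC of 0.98. A call at 48 hpf only still does not show that a difference was absent at 72 hpf.

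The members and lists were chosen with earlier results of these data known. Genes were named by rule: the 3 highest in mean CPM of each class, the 3 smallest adjusted p in each direction of each comparison, all members higher in GFP+, and the muscle-type subunits. Others were named where a count or a split called for it, after their values were seen. Of 47, 22 and 45 symbols of the 3 synaptic lists, 44, 22 and 43 matched. Alternatives were other scalings, no filter, DESeq2, a replicate block and leaving out each library. Replicate numbers pair the fractions because, by the study's methods, 1 replicate held both fractions at both stages. For each library the deviation of log2 CPM from its group mean was taken over the tested genes. Between the fractions, these deviations of same-numbered libraries correlated at 0.0975, 0.314 and 0.157 at 48 hpf and 0.338, -0.0823 and 0.369 at 72 hpf. Between the stages they correlated at -0.00217, 0.0136 and -0.114 in GFP+ and 0.0900, 0.277 and 0.00243 in GFP−. The submitters' design text calls the replicates biological and a legend of the paper calls them technical. The p-values therefore measure the spread between these libraries, which may be technical. Single values of 3 genes of the set, which stay in the counts, are not reported here.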

Additional observations from a re-analysis of the deposited data

Results flagged for a closer look

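The difference between GFP+ and GFP− changed between the stages, by the interaction test of edgeR (adjusted p below 0.05), for 11 of 120 members. That was 5% positive and 4.17% negative, beside 2.47% positive and 5.7% negative over all tested genes. The interactions, log2FC at 72 hpf minus log2FC at 48 hpf, were -4.21 for CHRNG (padj = 0.0035), -3.73 for CHRNA1 (padj = 0.011) and -3.34 for CHRNE (padj = 0.019). They were -3.82 for GABRA6 (ENSDARG00000075058, padj = 0.041) and -3.23 for GABRR1 (ENSDARG00000098081, padj = 0.038). They were 3.45 for SYT11 (ENSDARG00000056105, padj = 0.0046), 2.97 for *syt5b* (padj = 0.011), 2.87 for GRIK3 (padj = 0.035), 2.16 for NRXN3 (padj = 0.049), 2.09 for *grin2da* (padj = 0.020) and 1.63 for GRID1 (ENSDARG00000074583, padj = 0.047). Of the 12 fits that left out 1 library, *syt5b*, SYT11 (ENSDARG00000056105), CHRNG and CHRNA1 were called in 12, CHRNE in 11 and *grin2da* in 9. GABRR1 (ENSDARG00000098081) was called in 4 of them, and GABRA6 (ENSDARG00000075058), GRID1 (ENSDARG00000074583), GRIK3 and NRXN3 in 2 each.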

How the results depend on the processing

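Counts of members lower in GFP+ stayed within 1.5 times at both stages under DESeq2 size factors, total counts, DESeq2's Wald test, no filter and the replicate block. With the replicate block, which pairs same-numbered libraries, 83 members were lower and 2 higher in GFP+ at 48 hpf, 61 lower and 0 higher at 72 hpf, 33 fell and 1 rose in GFP+, 52 fell and 13 rose in GFP−, and 7 interactions were positive and 5 negative. It changed no fraction call of a member named above other than those of CHRNE, *nrxn1a* and *syt5b* at 72 hpf and of 1 delta receptor interacting protein gene at 48 hpf. The interaction counts were 11 positive and 11 negative with DESeq2's Wald test, and 2 positive and 3 negative on total counts without TMM, which moved the median log2FC of all genes to -0.32 for the stage change in GFP+ and to -0.10 for that in GFP−. The cause was not tested. Leaving out 1 library at a time gave 0 to 2 members higher and 69 to 85 lower in GFP+ at 48 hpf, 46 to 77 lower at 72 hpf, 1 to 3 that rose and 16 to 44 that fell in GFP+, 9 to 16 that rose and 37 to 61 that fell in GFP−, and 2 to 20 positive and 2 to 12 negative interactions. Without GFP− replicate 2 at 48 hpf, 0 members were higher in GFP+, and without GFP+ replicate 2 at 72 hpf 16 fell in GFP+. The stage change of GRIN1 (ENSDARG00000025728) in GFP− was 0.28 with all libraries (padj = 0.76), ran from -1.39 to 0.73 with 1 library left out, and reversed to -1.39 (padj = 0.027) without GFP− replicate 3 at 72 hpf, the 1 reversal among the named members. Counts of 3 or fewer per library limit *gabrr3b* and *chrna10a* in GFP+.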
